A study of Mus musculus with 9 samples.

Results

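Ribosome biogenesis and nucleolar genes were followed in mouse embryonic lung, as 47 genes taken by symbol from tables of 55286. All 47 had a single row in both the expected count and TPM tables, and all 47 passed the filter on low counts that left 15158 genes to test; the lowest count of any member in any library was 84. RNA was sequenced from 9 samples of wild-type mouse lung, in 3 groups of 3. The first group was lung of embryonic stage E11.5, for which the labels name no culture time and which is called fresh lung here. The other groups were lung explants of that stage after 72 h of culture, one as control and one exposed to EPZ5676, an inhibitor of DOT1L, the methyltransferase of lysine 79 of histone H3. All explants were thus cultured, and fresh lung was the one uncultured group. The labels call the cell type primary lung cell. The sources used here give no dose of EPZ5676, vehicle or number of embryos per sample, and no label states whether replicate libraries had separate embryos or cultures behind them. P-values therefore rest on the scatter of these libraries alone, part of which may be technical.

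Ribosomes are assembled in the nucleolus. RNA polymerase I copies the ribosomal DNA into a long precursor, small nucleolar RNA particles (snoRNPs) guide its chemical modification and first cuts, and separate sets of assembly factors shape the small and the large subunit. The transcription factor MYC is known to drive many of these genes together, and dividing progenitor cells, such as those of the early lung bud, need a high output of ribosomes. The members were described in 7 classes: polymerase I transcription (6 genes), box C/D snoRNP (4), box H/ACA snoRNP (5), small subunit assembly (12), large subunit assembly (12), nucleolar proteins with several roles (4), and MYC with growth-linked enzymes (4).

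Libraries held 6509563 to 9861452 expected counts, and TPM (transcript abundance scaled by transcript length and library total) are given as the authors deposited them, as mean ± SD over 3 libraries. Log2 fold changes ± SE come from the counts, with edgeR's quasi-likelihood test and Benjamini-Hochberg adjustment over all 15158 genes. A gene is said to have fallen or risen where its adjusted p was below 0.05. All 12 lung epithelial and all 12 lung mesenchymal markers reached a mean of 1 TPM in every group, so the labelled tissue was present. Whole tissue was sequenced, so fewer cells of a type and less RNA per cell cannot be told apart.

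Most transcripts of ribosome biogenesis were lower in cultured explants than in fresh lung, and the median change was below 0 in every class. In control explants the share that fell ran from 25.0% for MYC with growth-linked enzymes to 100% for box C/D snoRNP. Of the 47 members 32 fell in control explants and 0 rose, while 16.6% of all genes tested were called lower and 21.1% higher. The fitted change was below 0 for 46 of the 47, against 48.7% of all genes, and the member median log2 fold change was -0.49 (a fold of 0.711), against 0.02 over all genes tested. All 3 controls lay below all 3 fresh libraries in TPM for 38 members, a pattern shown by 24.6% of all genes, and they lay above for 0, against 19.8%. Without Control 3, the library farthest from the others for several members, 36 members fell. Changes ran from -1.57 for Odc1 to 0.17 for Nop10, the one member above fresh lung. Summed over the 47 members, TPM were 8072, 8912 and 8343 in the fresh libraries, 4945, 5247 and 4824 in controls, and 4950.4, 5032 and 4830.2 with EPZ5676. That sum amounted to 0.845% ± 0.043 of all TPM in fresh lungs, to 0.501% ± 0.022 in control explants and to 0.494% ± 0.010 under EPZ5676. The 3 fresh libraries stood apart from all 6 cultured ones, and the cultured groups overlapped. Other measures split the same libraries without overlap: mitochondrial transcripts took 8.18% to 10.24% of TPM in fresh libraries and 10.61% to 11.74% in cultured ones, and the 10 most abundant genes took 5.32% to 5.81% and 6.34% to 7.77% of counts. Their part in the result was not tested. A map of every member in every library shows the same split.

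**Figure D1:**
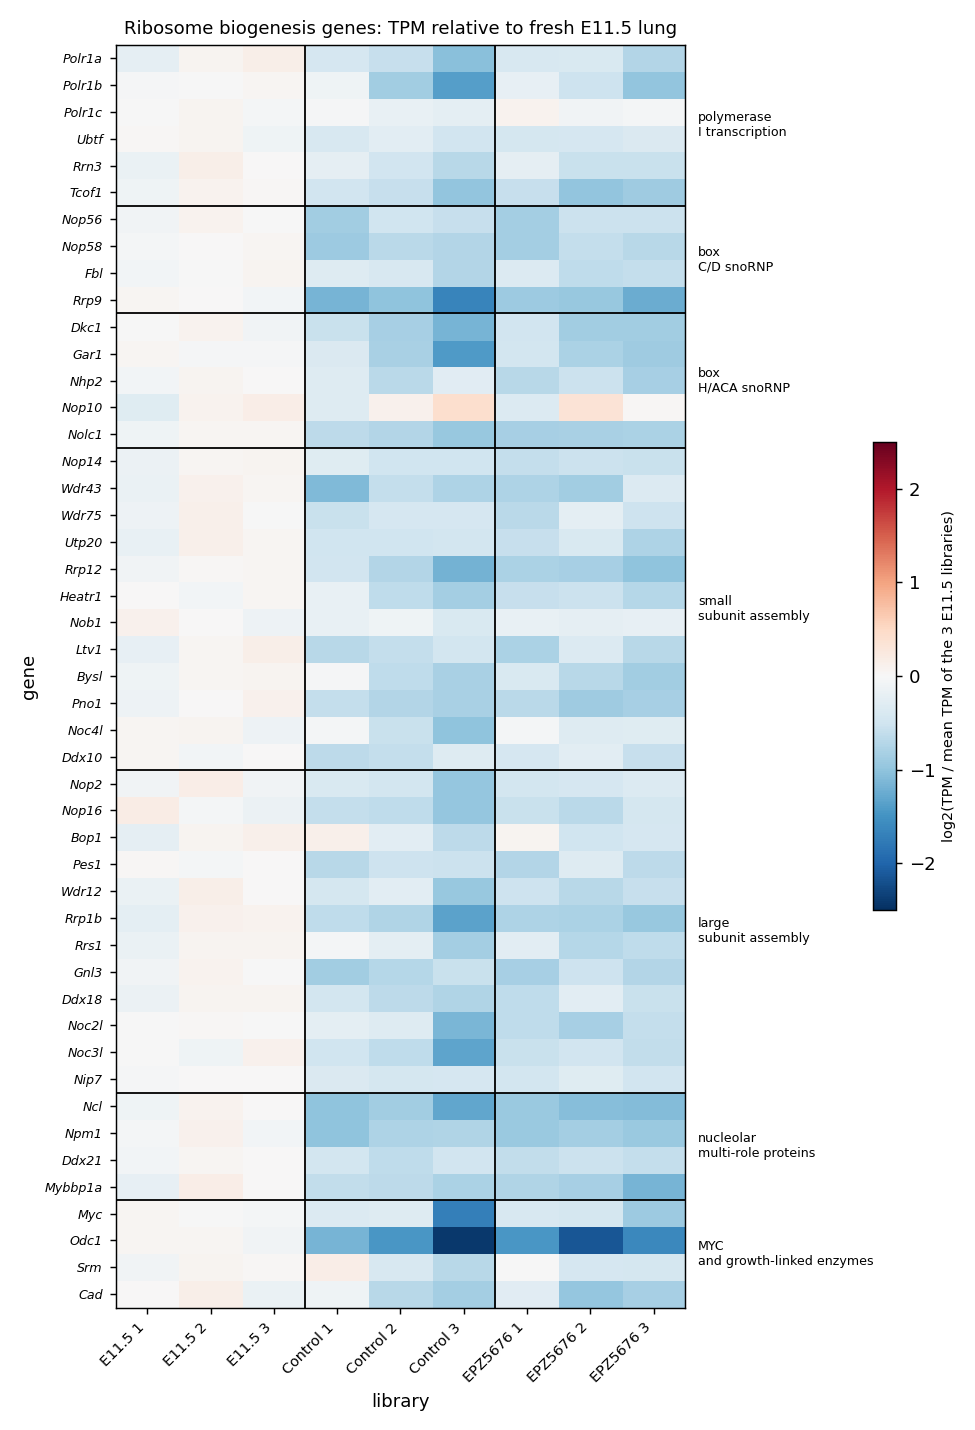
Log2 ratio of TPM to the mean of the 3 E11.5 libraries for the 47 members (rows, by class) in the 9 libraries (columns); blue is lower and red is higher. Cultured libraries are blue in nearly every row, with Nop10 and Polr1c as pale or red rows and Odc1 as the darkest, and Control 3 is the darkest control column.

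Other cell types also shifted between fresh and cultured lung, and their part in these results was not tested. The summed TPM of 13 erythroid markers was 18180 to 25110 in fresh lung, 113 to 1211 in controls and 75.3 to 1062 with EPZ5676, and 12 of the 13 fell in controls. The 10 endothelial markers summed to 204 to 227, 14.2 to 88.2 and 24.1 to 59.7 TPM in the same order, and all 10 fell. The 12 macrophage and leukocyte markers summed to 45.7 to 71.4, 689 to 813 and 934 to 1115 TPM, and 11 rose. Lung epithelial markers summed to 467 to 513, 1193 to 1793 and 1639 to 2455 TPM, and 9 of 12 rose. The 12 mesenchymal markers summed to 1694 to 1934, 2341 to 3023 and 2331 to 2645 TPM, and 4 rose and 3 fell. The 10 mesothelial markers summed to 155 to 179, 125 to 157 and 206 to 298 TPM, and 3 rose and 3 fell. With EPZ5676 against control, all 10 mesothelial markers had a log2 fold change above 0, and 0 were called. Liver markers reached 315 TPM in Control 1, the highest of the controls, against 15.9 in Control 3. No erythroid or endothelial marker was at 0 in all controls; Gata1, an erythroid factor, was at 0 in all 3 EPZ5676 libraries. Within the controls, Control 3 was the lowest library for 33 of 47 members, and also for 62.0% of all genes tested.

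MYC is known to bind the E-box CACGTG, and the promoters of the members were searched for it as a description. RefSeq promoter windows (GRCm38.p6, 250 bases before to 50 after the start) were found for 39 of the 47 members; Bop1, Fbl, Myc, Npm1, Rrp12, Rrs1, Srm and Tcof1 had no entry. The E-box stood in at least one window of 8 of the 39 (20.5%), against 11.4% of the 10937 tested genes with a window, 11.7% of the 1797 tested genes that fell in control explants, and 8.09% of all 27025 genes with one. A match is a description of letters, not a bound site. The 9 matches in 8 genes are printed on the transcript strand, 5′ to 3′, with the E-box in capitals and up to 12 bases either side, cut at the window's end. Positions count from the first transcribed base as 1, so that negative positions lie before it.
Ltv1, chr10:13193092-13193121, minus strand, position 29: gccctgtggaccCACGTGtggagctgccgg
Mybbp1a, chr11:72441355-72441376, plus strand, position 41: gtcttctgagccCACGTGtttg
Nop2, chr6:125131811-125131840, plus strand, position -60: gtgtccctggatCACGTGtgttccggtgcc
Pes1, chr11:3963965-3963994, plus strand, position 3: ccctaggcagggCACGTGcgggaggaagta
Pno1, chr11:17211540-17211564, minus strand, position 38: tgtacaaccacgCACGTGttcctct
Rrn3, chr16:13780472-13780501, plus strand, position -215: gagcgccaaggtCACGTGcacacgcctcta
Rrn3, chr16:13780639-13780668, plus strand, position -48: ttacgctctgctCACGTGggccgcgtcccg
Utp20, chr10:88826765-88826789, minus strand, position 38: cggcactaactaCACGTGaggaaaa
Wdr43, chr17:71616220-71616249, plus strand, position 18: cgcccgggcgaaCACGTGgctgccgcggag

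In 6 of these genes the E-box lay after the RefSeq start, between positions 3 and 41, and in Nop2 and Rrn3 it lay before it. Rrn3, which carries polymerase I to its promoter, was the member with 2 matches. All 8 genes fell in control explants, as did 20 of the 31 members with a window and no E-box and 4 of the 8 members with no entry. Of all genes tested 16.6% fell. Over tested genes with a window, the E-box was about as common in those that fell (11.7%) as in all (11.4%). A link between the E-box and the fall of members was not tested.

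The 250 bases before the start are shown for 4 members, Rrn3 and Nop2 as the genes with an E-box there, and Ncl and Nop56 as highly expressed members that fell without one. Capitals mark the E-box CACGTG and the GC box GGGCGG, on either strand.
Rrn3, chr16:13780449-13780698, plus strand: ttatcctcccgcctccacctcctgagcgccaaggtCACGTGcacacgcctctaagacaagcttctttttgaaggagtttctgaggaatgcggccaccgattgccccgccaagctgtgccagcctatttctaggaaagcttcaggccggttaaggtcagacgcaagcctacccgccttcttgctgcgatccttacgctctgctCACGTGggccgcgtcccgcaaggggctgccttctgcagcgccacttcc
Nop2, chr6:125131633-125131882, plus strand: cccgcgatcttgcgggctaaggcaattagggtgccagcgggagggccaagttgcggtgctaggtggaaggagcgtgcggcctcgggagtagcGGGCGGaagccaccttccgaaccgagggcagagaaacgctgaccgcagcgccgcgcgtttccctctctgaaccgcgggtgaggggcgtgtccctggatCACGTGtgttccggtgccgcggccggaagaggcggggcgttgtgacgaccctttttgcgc
Ncl, chr1:86359456-86359705, minus strand: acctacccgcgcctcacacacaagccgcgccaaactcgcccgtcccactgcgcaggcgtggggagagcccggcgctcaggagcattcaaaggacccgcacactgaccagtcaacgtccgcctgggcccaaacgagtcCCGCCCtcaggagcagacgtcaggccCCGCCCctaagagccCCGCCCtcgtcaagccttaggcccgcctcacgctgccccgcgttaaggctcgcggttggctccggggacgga
Nop56, chr2:130274162-130274411, plus strand: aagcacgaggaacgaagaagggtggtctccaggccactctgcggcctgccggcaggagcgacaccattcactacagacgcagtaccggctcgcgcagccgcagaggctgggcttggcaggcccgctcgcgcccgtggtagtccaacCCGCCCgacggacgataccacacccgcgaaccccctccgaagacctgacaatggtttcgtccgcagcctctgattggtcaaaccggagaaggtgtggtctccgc

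The GC box, a site of SP-family factors, was found in 30 of 39 members (76.9%), against 68.1% of tested genes and 38.2% of all genes. Member windows had a G and C content of 60.2%, against 60.4% for tested genes and 53.8% for all genes. In all, 13 motifs were searched on both strands, and the share of members is given before that of tested genes and that of all genes. The E-box variants CACGCG and CATGTG were in 35.9%, 19.7% and 10.5% and in 20.5%, 10.4% and 15.9%. The ETS-type motif CCGGAAG was in 30.8%, 19.0% and 9.93%, and TTCCGG, which overlaps it on the other strand, in 41.0%, 29.9% and 16.7%. The CCAAT box CCAAT was in 38.5%, 42.8% and 41.1%, and ATTGGC, which overlaps it on the other strand, in 12.8%, 22.1% and 16.7%. TATAAA was in 5.13%, 9.03% and 15.7%, and TGCGCA in 17.9%, 15.4% and 8.79%. The CRE motif TGACGTCA, the NRF1-type palindrome and the ZBTB33-type palindrome were in 1, 1 and 0 of the 39 members, against 3.47%, 2.24% and 1.05% of tested genes and 2.03%, 1.07% and 0.525% of all genes.

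Genes of polymerase I transcription were lower by a median log2 fold change of -0.45 in control explants, and 3 of the 6 fell. Tcof1, the treacle protein that supports transcription of ribosomal DNA, was at 41.3, 47.5 and 45.5 TPM in fresh lungs, 32.3, 29.9 and 22.7 TPM in control explants and 29.98, 22.6 and 24.2 TPM under EPZ5676. Every cultured library lay below every fresh one, and Tcof1 fell by 0.52 ± 0.089 on the log2 scale in controls (adjusted p = 0.00136, edgeR). Polr1a (chr6:71909053-71984935, GRCm38), the largest catalytic subunit of the polymerase, was at 38.1, 46.7 and 49.4 TPM in fresh lungs, 33.5, 29.8 and 21.6 TPM in control explants and 34.1, 34.2 and 26.8 TPM under EPZ5676. Its log2 fold change was -0.48 ± 0.083 (adjusted p = 0.0014, edgeR), again with no overlap between fresh and cultured libraries. Rrn3, the factor that brings the polymerase to its promoter, was at 44.7, 54.96 and 49.9 TPM in fresh lungs, 42.5, 35.9 and 30.9 TPM in control explants and 42.8, 33.7 and 33.9 TPM under EPZ5676. It fell in controls with a log2 fold change of -0.42 ± 0.10 (adjusted p = 0.00721, edgeR), but did not pass with limma-trend on log2(TPM + 0.1), where the adjusted p was 0.0502. Polr1b, the other large catalytic subunit, had a log2 fold change of -0.56 ± 0.23 and did not pass (adjusted p = 0.0838, edgeR): its controls ranged from 11.3 TPM in Control 3 to 27.3 TPM in Control 1. Ubtf, which binds the ribosomal DNA promoter, was at 93.9 ± 7.58 against 122 ± 7.95 TPM (adjusted p = 0.0539, edgeR). Polr1c, a subunit shared with polymerase III, was at 77.5 ± 5.92 against 86.2 ± 3.51 TPM, with overlapping groups.

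All 4 box C/D snoRNP genes fell, with a median log2 fold change of -0.56. These particles carry guide RNAs that direct methylation of ribosomal RNA. Nop58, a core protein, was at 556, 579 and 601 TPM in fresh lungs, 310.2, 361 and 350.0 TPM in control explants and 319, 382 and 358 TPM under EPZ5676. Nop56, its paralog in the same particle, was at 411, 462 and 433 TPM in fresh lungs, 239, 307 and 294 TPM in control explants and 243, 299 and 298 TPM under EPZ5676. The 2 genes kept the same order of libraries in the controls, with Control 1 lowest, unlike most members. Their log2 fold changes were -0.59 ± 0.12 and -0.53 ± 0.13 (adjusted p = 0.00297 and 0.0103, edgeR). Fbl, fibrillarin, the methyltransferase of the particle, was at 185 ± 26.8 against 258 ± 12.9 TPM. Rrp9, a protein of the U3 particle that acts in the first cuts of the precursor, was at 61.7, 59.6 and 56.9 TPM in fresh lungs, 26.4, 29.7 and 18.9 TPM in control explants and 31.6, 30.7 and 25.2 TPM under EPZ5676. Its log2 fold change from counts was -0.70 ± 0.14 (adjusted p = 0.00264, edgeR), a smaller step than the log2 ratio of its mean TPM, -1.25. The gene Parp3 overlaps Rrp9 on the other strand, and 18 of the 47 members, Rrp9 included, overlap such a gene. The sources used here do not state whether the counting used strand. Why counts and TPM differed for Rrp9, and the part of such overlap in either measure, was not tested.

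In the box H/ACA class, which turns uridines of ribosomal RNA into pseudouridine and also stabilises telomerase RNA, 3 of 5 genes fell and the median log2 fold change was -0.74. Dkc1 (chrX:75095854-75109777, GRCm38), dyskerin, the pseudouridine synthase, was at 116, 124 and 109.6 TPM in fresh lungs, 78.7, 65.4 and 51.8 TPM in control explants and 83.3, 63.3 and 63.98 TPM under EPZ5676. No cultured library reached the lowest fresh one, and the log2 fold change in controls was -0.85 ± 0.083 (adjusted p = 4.9e-05, edgeR), the smallest adjusted p of any member. Nolc1, a nucleolar chaperone of snoRNPs, was at 92.4, 103 and 104 TPM in fresh lungs, 63.3, 59.9 and 51.8 TPM in control explants and 55.8, 56.5 and 57.5 TPM under EPZ5676 and had a log2 fold change of -0.74 ± 0.088 (adjusted p = 1.4e-04, edgeR). Gar1, a core protein of the particle, was at 132, 126 and 126 TPM in fresh lungs, 98.9, 72.6 and 47.9 TPM in control explants and 93.03, 73.7 and 69.3 TPM under EPZ5676. Its controls spread over a wide range, with Control 3 lowest, and its log2 fold change was -0.74 ± 0.16 (adjusted p = 0.00415, edgeR). Nop10, the smallest core protein, was at 50.02, 65.5 and 69.3 TPM in fresh lungs, 48.9, 66.6 and 82.8 TPM in control explants and 48.4, 77.6 and 63.1 TPM under EPZ5676. Fresh and cultured libraries overlapped throughout, and its log2 fold change of 0.17 ± 0.29 did not pass (edgeR adjusted p = 0.681, 95% interval -0.49 to 0.82). The change of Nhp2, another core protein, was -0.38 ± 0.16 (adjusted p = 0.0801, edgeR). One class thus held the smallest adjusted p of the 47 members and the one member above fresh lung.

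Small subunit assembly factors had a median log2 fold change of -0.51, and 8 of 12 fell. Rrp12, which helps the early small subunit leave the nucleus, was at 15.7, 16.9 and 17.4 TPM in fresh lungs, 12.04, 10.03 and 7.35 TPM in control explants and 9.68, 9.37 and 8.25 TPM under EPZ5676. Heatr1, a scaffold of the small subunit processome, was at 42.5, 40.04 and 43.7 TPM in fresh lungs, 37.2, 27.2 and 23.5 TPM in control explants and 28.4, 29.1 and 25.7 TPM under EPZ5676. Pno1, which binds the end of the maturing small subunit RNA, was at 76.5, 83.8 and 89.6 TPM in fresh lungs, 55.1, 50.1 and 47.6 TPM in control explants and 52.3, 44.7 and 46.9 TPM under EPZ5676. In all 3 genes each cultured library lay below each fresh one, with log2 fold changes of -0.73 ± 0.12, -0.71 ± 0.085 and -0.66 ± 0.10 (edgeR adjusted p = 0.00116, 1.5e-04 and 4.8e-04). The other members that fell were the processome proteins Utp20, Wdr43, Nop14 and Noc4l and the assembly factor Ltv1, with log2 fold changes from -0.55 to -0.48. Nob1, the nuclease that makes the final cut of the small subunit RNA, was at 45.7 ± 4.28 against 53.2 ± 4.05 TPM and did not pass (log2 fold change -0.16 ± 0.10, adjusted p = 0.242, edgeR). Bysl, a late assembly factor, and Ddx10, a helicase, missed the threshold narrowly (adjusted p = 0.0505 and 0.0528, edgeR), and Wdr75 had an adjusted p of 0.161 by edgeR.

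Large subunit assembly factors fell in 9 of 12 cases, with a median log2 fold change of -0.46. Rrp1b, a nucleolar processing factor, was at 43.6, 55.5 and 54.9 TPM in fresh lungs, 33.02, 30.5 and 20.3 TPM in control explants and 29.9, 29.6 and 26.5 TPM under EPZ5676. Noc3l, which joins early large subunit particles, was at 20.01, 18.6 and 21.8 TPM in fresh lungs, 14.2, 12.96 and 8.11 TPM in control explants and 13.7, 14.4 and 13.2 TPM under EPZ5676. Both were lowest in Control 3, and both had no overlap between fresh and cultured libraries. Their log2 fold changes were -0.83 ± 0.16 and -0.75 ± 0.14 (adjusted p = 0.00242 and 0.00232, edgeR). Nop16 was at 83.1, 70.9 and 65.9 TPM in fresh lungs, 48.7, 47.3 and 37.7 TPM in control explants and 49.8, 46.03 and 54.2 TPM under EPZ5676, with a log2 fold change of -0.58 ± 0.10 (adjusted p = 0.00121, edgeR). The 3 proteins of the PeBoW complex, which is needed to process the large subunit RNA, did not share one call. Pes1 and Wdr12 fell (log2 fold changes -0.38 ± 0.11 and -0.36 ± 0.13, adjusted p = 0.0214 and 0.0472, edgeR), while Bop1 was at 28.6 ± 7.65 against 33.5 ± 4.11 TPM with overlapping groups (adjusted p = 0.33, edgeR). Bop1 shares its locus with Mroh1 and Scx on the other strand. Members that fell, such as Pno1 and Gnl3, also overlap a gene on the other strand, and the part of such overlap was not tested. Gnl3, nucleostemin, a GTPase of stem and progenitor cells, fell from 222 ± 13.7 to 137 ± 14.6 TPM (log2 fold change -0.48 ± 0.16, adjusted p = 0.0405, edgeR). Nop2, an RNA methyltransferase, Ddx18, a helicase, and Noc2l, an assembly factor, also fell, with log2 fold changes of -0.44 ± 0.11, -0.57 ± 0.10 and -0.48 ± 0.15. Rrs1 and Nip7 did not pass (adjusted p = 0.102 and 0.0841, edgeR).

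All 4 nucleolar proteins with several roles fell, with a median log2 fold change of -0.63. Ncl (chr1:86344719-86359400, GRCm38), nucleolin, which binds the ribosomal RNA precursor and supports its transcription, was at 890.2, 1009.8 and 962 TPM in fresh lungs, 475, 523 and 389.7 TPM in control explants and 499.7, 453 and 447 TPM under EPZ5676. Its fold in controls was 0.502, with no overlap between fresh and cultured libraries (log2 fold change -0.995 ± 0.10, adjusted p = 5.3e-05, edgeR). Npm1, nucleophosmin, a histone and ribosome chaperone, was the most abundant member and held rank 23 of all genes by mean TPM in fresh lung. Its values were 3012, 3394 and 2995 TPM in fresh lungs, 1552, 1831 and 1865 TPM in control explants and 1639, 1733 and 1638 TPM under EPZ5676. All cultured libraries lay below all fresh ones (log2 fold change -0.73 ± 0.16, adjusted p = 0.00481, edgeR). Mybbp1a, a nucleolar regulator of transcription, was at 135, 175 and 156 TPM in fresh lungs, 101, 98.3 and 90.3 TPM in control explants and 92.2, 87.05 and 69.9 TPM under EPZ5676 and fell by 0.54 ± 0.10 on the log2 scale (adjusted p = 0.00194, edgeR). Ddx21, a helicase of the nucleolus, had a log2 fold change of -0.48 ± 0.12.

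Among MYC and the enzymes of growth, the one gene that fell was Odc1, ornithine decarboxylase, which makes the first polyamine. Odc1 (chr12:17544794-17551505, GRCm38) was at 285, 285 and 262 TPM in fresh lungs, 124, 101 and 52.3 TPM in control explants and 101, 63.3 and 90.5 TPM under EPZ5676. Its log2 fold change of -1.57 ± 0.19 (a fold of 0.338, adjusted p = 2.4e-04, edgeR) was the largest of the 47, and the highest cultured library, Control 1, was far below the lowest fresh one. Myc itself (chr15:61985391-61990374, GRCm38) was at 33.4, 32.03 and 30.9 TPM in fresh lungs, 25.4, 25.8 and 9.82 TPM in control explants and 24.4, 23.5 and 17.2 TPM under EPZ5676. No control reached the lowest fresh library, but Control 3 stood far below the other controls, and the log2 fold change of -0.67 ± 0.25 did not pass (adjusted p = 0.0555, edgeR). Without Control 3 that change was -0.39, and with DESeq2 it passed at -0.70 (DESeq2 adjusted p = 0.0220). Srm, spermidine synthase, and Cad, which starts pyrimidine synthesis, were at 58.9 ± 18.3 and 26.4 ± 7.53 TPM in controls against 70.8 ± 4.18 and 37.7 ± 3.85 in fresh lung, with overlapping groups and no call. The plot of TPM by group shows these levels for 8 members.

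**Figure D2:**
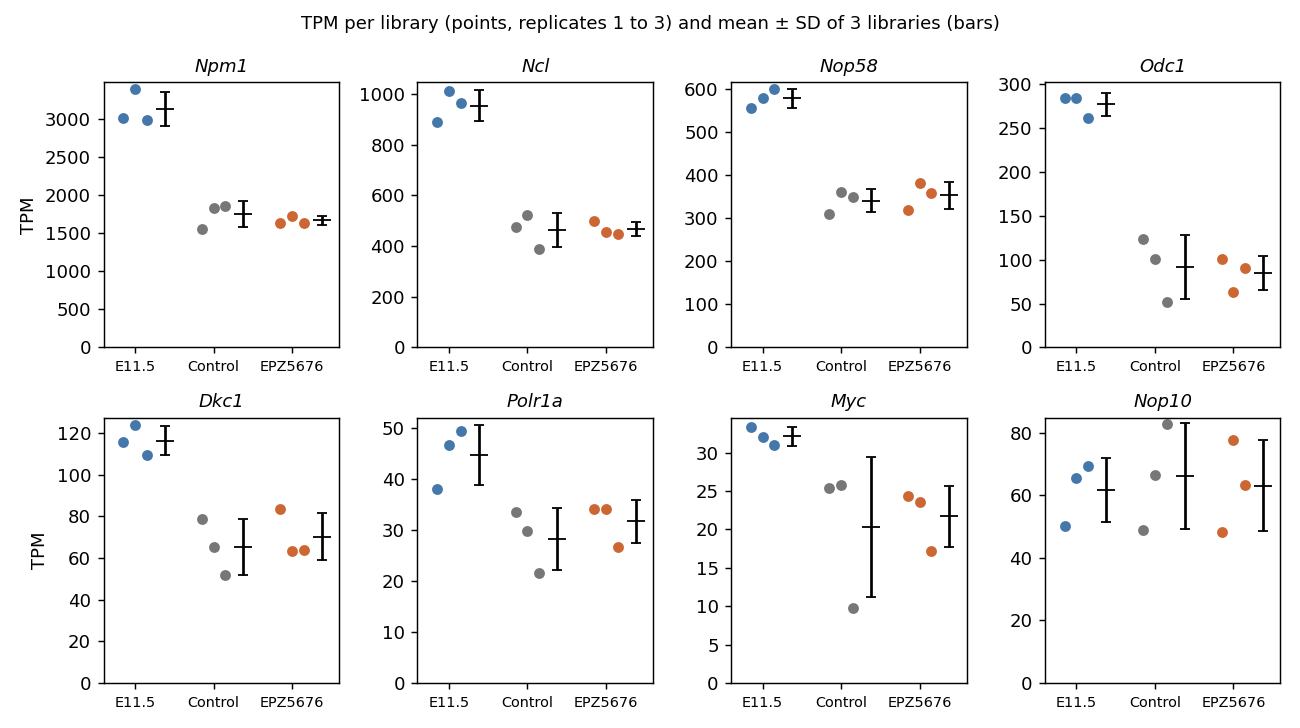
TPM (y axis, from 0) of 8 members in each library, as points for replicates 1 to 3 from left to right, with the mean ± SD of each group as a bar. Npm1, Ncl, Nop58, Odc1, Dkc1, Polr1a and Myc are lower in all cultured libraries than in all fresh ones, Nop10 is not, and Control 3 is low for Myc and Odc1.

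The other genes of the pathway, from 5 lists of 145 genes that hold none of the members, had a median log2 fold change of -0.34. Of 144 tested 61 fell (42.4%, against 16.6% of all genes) and 2 rose (1.39%, against 21.1%); Exosc6 was not tested. Those that rose, named after their values were seen, were Imp3, of the small subunit processome, and Nop53, of large subunit assembly. By list, 6 of 12 other snoRNP genes fell, 21 of 46 other small subunit genes (45.7%) and 27 of 53 other large subunit genes (50.9%). The 3 of 17 other polymerase I genes that fell (17.6%) were near the share of all genes. Of 16 tested exosome and trimming genes 4 fell (25.0%), which in a list of 16 is also close to that share. The largest falls in these lists were those of Polr1e and Twistnb (log2 fold changes -0.55 ± 0.13 and -0.50 ± 0.12), Tgs1 and Znhit6 (-0.86 ± 0.12 and -0.79 ± 0.15), Rrp8 and Bms1 (-0.87 ± 0.22 and -0.71 ± 0.10), Mdn1 and Las1l (-0.83 ± 0.11 and -0.74 ± 0.12), and Dis3 and Exosc8 (-0.62 ± 0.095 and -0.58 ± 0.13). Their edgeR adjusted p-values lay between 2.5e-04 and 0.0119.

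The cytosolic ribosomal proteins, which are the parts that these factors assemble, lay on the other side. Of 79 genes 31 rose in control explants (39.2%, against 21.1% of all genes) and 0 fell, with a median log2 fold change of 0.45 against -0.49 for the biogenesis members. Rps19 went from 1149 ± 86.9 to 2118 ± 356 TPM (log2 fold change 0.93 ± 0.20, adjusted p = 0.00463, edgeR), and Rps27 had a log2 fold change of 0.93 ± 0.28 (adjusted p = 0.0289, edgeR). Their median ratio to fresh lung was highest in Control 3, at 0.61 on the log2 scale of TPM, the library in which the members' median ratio was lowest, at -0.78. The median over all genes tested was also lowest in Control 3, at -0.26, against 0.10 in Control 1 and -0.06 in Control 2. Among controls, the box C/D class and the nucleolar proteins with several roles had their lowest medians in Control 1, at -0.88 and -0.81. Many ribosomal protein genes have processed pseudogenes, so their expected counts are estimates. Of 41 genes for G1/S and DNA replication 22 fell (53.7%, against 16.6% of all genes) and 1 rose (2.44%, against 21.1%). Their median log2 fold change was -0.33. Rrm2, a subunit of ribonucleotide reductase, had a log2 fold change of -1.02 ± 0.12 and Dut, which removes dUTP, of -0.71 ± 0.17 (adjusted p = 1.5e-04 and 0.00765, edgeR). A plot of class medians by library shows the biogenesis classes and the ribosomal proteins on opposite sides of fresh lung.

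**Figure D3:**
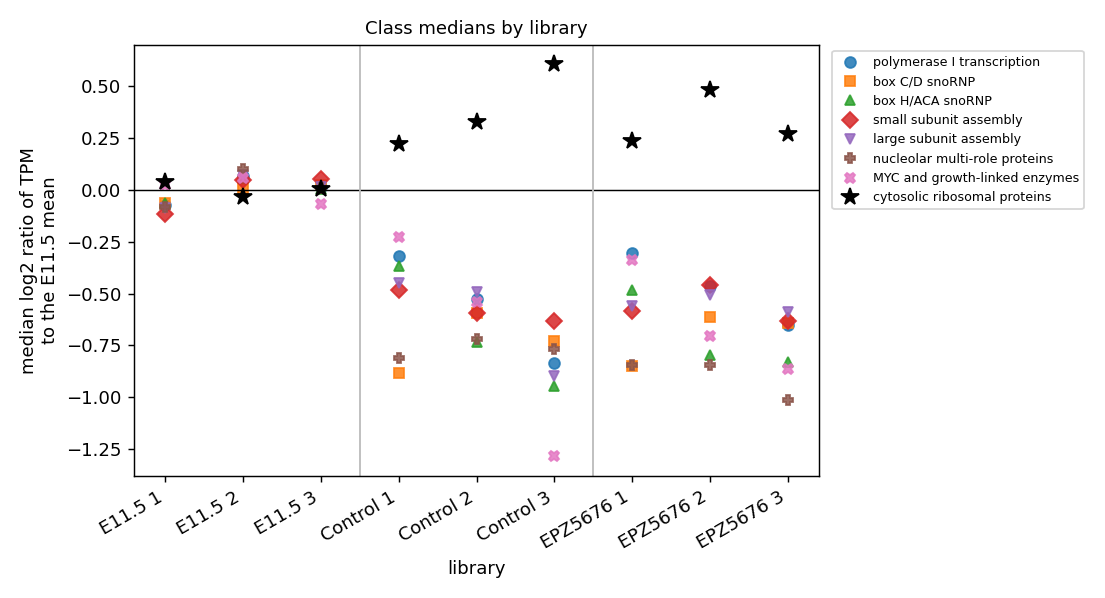
Median over each class of the log2 ratio of TPM to the mean of the 3 E11.5 libraries (y axis) in each of the 9 libraries (x axis), with cytosolic ribosomal proteins as stars. In all 6 cultured libraries the 7 classes lie below 0 and the ribosomal proteins above it, from 0.22 in Control 1 to 0.61 in Control 3.

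Of 13 other genes of the MYC network, factors that pair with or replace MYC at its partner MAX, 4 rose in control explants and 0 fell (30.8% rose, against 21.1% of all genes, which in a list of 13 is close). Mxd4, which competes with MYC for MAX, was at 33.2, 24.6 and 28.9 TPM in fresh lungs, 71.00, 60.9 and 42.1 TPM in control explants and 66.6, 44.7 and 67.2 TPM under EPZ5676. All 6 cultured libraries lay above the fresh ones, and the log2 fold change in controls was 0.92 ± 0.13 (adjusted p = 3.9e-04, edgeR). Mnt, another such repressor, had a log2 fold change of 0.73 ± 0.25 (adjusted p = 0.0434, edgeR). The others that rose were Mxd3 and Mycl, named after their values were seen. The MYC family member Mycn, known for its role in lung bud growth, was at 28.5 ± 1.91 TPM in fresh lung and 23.1 ± 4.17 in controls (log2 fold change -0.20 ± 0.14, adjusted p = 0.28, edgeR), and Max was at 55.8 ± 1.05 and 53.4 ± 6.55 TPM. Of 24 other genes of polyamine and nucleotide synthesis 12 fell and 1 rose. The latter was Sat1, which starts the breakdown of polyamines, at 40.7, 34.8 and 38.05 TPM in fresh lungs, 90.1, 87.3 and 114 TPM in control explants and 92.3, 100.01 and 124 TPM under EPZ5676 (log2 fold change in controls 1.42 ± 0.20, adjusted p = 4.4e-04, edgeR). Prps1, which makes the sugar precursor of nucleotides, had the largest fall of that list (-0.90 ± 0.14, adjusted p = 5.9e-04, edgeR). Odc1 thus fell while Sat1 rose, without overlap between fresh and cultured libraries for either gene. Both were named for the size of their change. Srm, also of polyamine synthesis, did not pass (log2 fold change -0.24 ± 0.17, adjusted p = 0.276, edgeR).

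EPZ5676 was compared with control explants to see what DOT1L inhibition does to the cultured lung. None of the 47 members passed the test: edgeR called 0 higher and 0 lower, as it did for 0.0% of all 15158 genes, and DESeq2 also called 0 members, though it called 67 genes higher and 16 lower. At an unadjusted p under 0.05 there were 0 members, against 6.94% of all genes. The member median log2 fold change was -0.049, with 34 of 47 below 0, where 50.8% of all genes were. That median ranged from -0.087 to -0.007 over 17 settings, and 14 members were below 0 in all of them. These settings reuse the same libraries, and the matching share of all genes was not counted. Polr1c, Noc4l, Nop2, Nop16 and Noc3l were above 0 in all 17, and the other members changed sign between settings. Class medians lay between -0.086 for the nucleolar proteins with several roles and -0.014 for large subunit assembly. All 3 EPZ5676 libraries lay on one side of the controls for 1 member, Nop14, which was lower (31.4, 32.4 and 32.2 against 38.2, 33.5 and 33.4 TPM), and 2.59% of all genes showed that pattern. They lay above all controls for 0 members, against 5.64% of all genes.

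The spread sets how small a change could have been seen. The 95% interval of the change lay within 1.5-fold either way for 44 of the 47 members, and for 53.9% of all genes. The exceptions were Nhp2 (-0.66 to 0.044 on the log2 scale), Nop10 (-0.78 to 0.53) and Myc (-0.42 to 0.69). The fit pools the scatter of all groups, and fresh libraries scattered less than cultured ones. With the 6 cultured libraries fitted alone, 40 of 47 intervals lay within 1.5-fold, beside 7476 of the 14623 genes tested in both fits. A p that misses the threshold is no sign that levels were equal, and smaller changes than these intervals hold were not detectable with 3 libraries a group.

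The 6 members with the smallest unadjusted p were 3 lower and 3 higher. Nhp2 was at 40.7, 45.2 and 36.8 TPM with EPZ5676 and 52.6, 41.2 and 54.1 in controls, with a log2 fold change of -0.31 ± 0.16 (adjusted p = 0.768, edgeR). Control 2 lay inside the range of the treated libraries. The other lower genes were Tcof1 (-0.14 ± 0.09) and Pno1 (-0.14 ± 0.10), and the higher ones Nop16 (0.18 ± 0.10), Noc4l (0.22 ± 0.14) and Noc3l (0.22 ± 0.14). Noc4l was at 29.9, 24.7 and 24.9 TPM with EPZ5676 against 29.7, 20.9 and 15.5 in controls, and Noc3l at 13.7, 14.4 and 13.2 against 14.2, 12.96 and 8.11. In both genes Control 3 was the low library and Control 1 lay within the treated range. The edgeR adjusted p-values of these 6 lay between 0.768 and 0.852. Levels of the most abundant members were close in both groups, at 467 ± 28.7 against 463 ± 67.5 TPM for Ncl and 1670.0 ± 54.6 against 1749 ± 172 TPM for Npm1. Myc was at 21.7 ± 3.96 against 20.3 ± 9.10 TPM, and its log2 fold change of 0.13 ± 0.25 turned to -0.15 without Control 3. The plot of intervals sets both comparisons side by side.

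**Figure D4:**
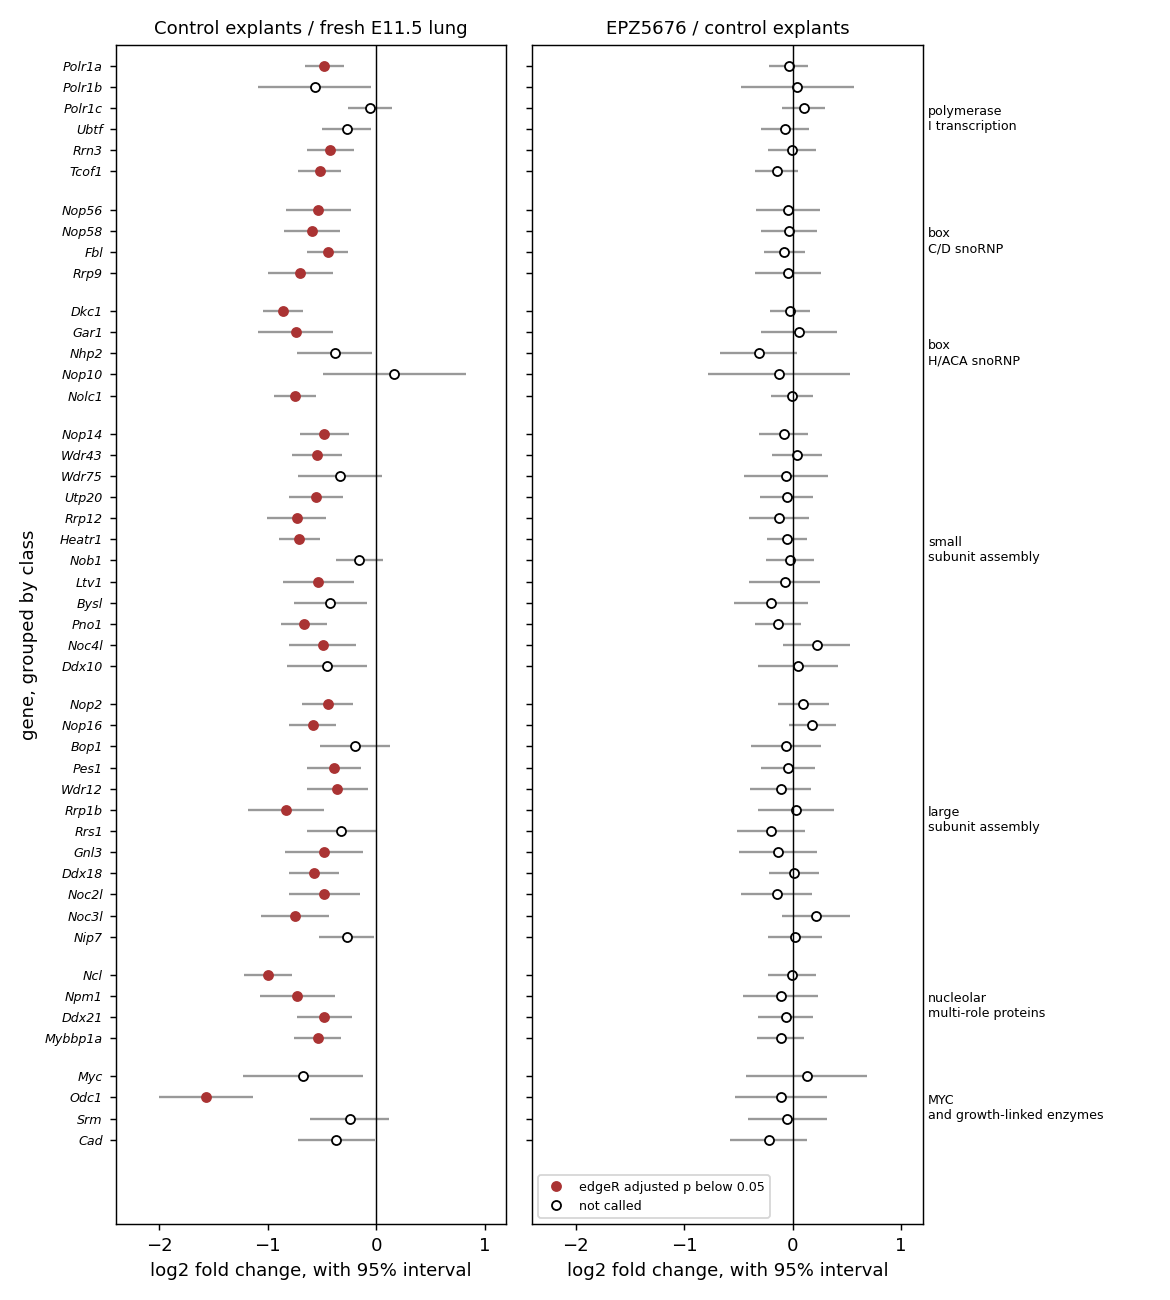
Log2 fold change (x axis) with its 95% interval for each of the 47 members (y axis, by class), control explants over fresh lung at left and EPZ5676 over control explants at right; filled points passed edgeR's adjusted threshold of 0.05. At left 46 points lie below 0 and 32 are filled, and at right no point is filled and all 47 intervals include 0.

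EPZ5676 explants were also set against fresh lung, a comparison that shares its libraries with both others. Of the 47 members 36 fell and 0 rose, where 17.9% of all genes were called lower and 22.1% higher, and the median log2 fold change was -0.56, beside -0.49 for controls against the same fresh libraries. All 3 treated libraries lay below all 3 fresh ones for 42 members, against 26.7% of all genes. Odc1 had a log2 fold change of -1.68 ± 0.19, beside -1.57 ± 0.19 in controls, and Dkc1 of -0.87 ± 0.083, beside -0.85 ± 0.083. Calls differed for 6 members: Ubtf, Nhp2, Bysl, Rrs1 and Cad passed under EPZ5676 and not in controls, and Noc4l the reverse. Ubtf, with -0.34 ± 0.10 (adjusted p = 0.0193, edgeR), and Bysl, with -0.62 ± 0.15 (adjusted p = 0.00902, edgeR), are examples, and none of the 6 was called in the direct comparison of EPZ5676 with control explants. Polr1c, Nop10, Bop1 and Srm passed in neither comparison with fresh lung and overlapped with it in both.

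Some members shared a feature of position. By GENCODE M21, 7 of the 47 hold snoRNA genes on their own strand, 20 in all: 5 in Nop56, 4 in Nop58, 3 each in Wdr43, Gnl3 and Ncl, and 1 each in Dkc1 and Odc1. Vertebrate snoRNAs are commonly cut from introns of such host genes, and the genes of the snoRNP proteins Nop56, Nop58 and Dkc1 are among them. All 7 hosts fell in control explants, as did 25 of the other 40 members and 16.6% of all genes tested. The hosts include abundant members such as Ncl and Nop58, and whether holding snoRNA genes goes with the fall was not tested. The snoRNA rows held at most 3.19 expected counts summed over all 9 libraries, too few to describe the snoRNAs themselves.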

How the data were processed

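RNA of 9 mouse lung samples was measured by RNA-seq. Libraries were made from TRIzol-extracted total RNA with a Vazyme VAHTS kit, per the labels' protocols. RSEM, Bowtie2 and mm10 are named, without versions, in the submitters' processing notes; the strand setting was not stated there. The authors deposited expected counts per gene, of which 12.5% to 15.3% were not whole, and TPM, which summed to 998977 to 999233 per library. Expected counts split reads between similar genes, so values of genes with pseudogene copies are estimates. Identifiers and symbols matched GENCODE M21 (GRCm38, the assembly of mm10) in 100% of rows.

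Expected counts were rounded, filtered with filterByExpr (minimum count 10) and scaled by TMM. All 9 libraries entered one fit by group, with two-sided robust quasi-likelihood tests (legacy method) in edgeR 4.0.16 under R 4.3.3; the SE and the 95% interval come from the F statistic and its degrees of freedom. No replicate pair was as alike as sampling noise alone would make it (chi-square per degree of freedom 2.69 to 31.1). Alternatives used other scalings, filters and libraries, a replicate block, DESeq2 1.42.0 and limma 3.58.1. Every member is accounted for; single values are given for Myc, for up to 3 called members per class with the largest change, for 6 members with the smallest p under EPZ5676 and for up to 2 genes of each other list, and further members are named where calls are listed. Members and lists were chosen with earlier results of these data known. Figures were drawn with matplotlib 3.10.9.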

Additional observations from a re-analysis of the deposited data

How the results depend on the processing

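The fall of the members in control explants held under every alternative run: 32 members fell in the main analysis, 32 to 37 under the other scalings, filters, tools and sets of libraries, and 26 to 36 with a library left out, while 0 rose in any. The median member change was -0.58 with limma-trend on log2(TPM + 1) and -0.59 on log2(TPM + 0.1), against -0.49, and -0.54 to -0.48 with a library left out. Over the 17 settings, 25 members were called in all, 5 in none, and 45 were below fresh lung in all. No member was called with EPZ5676 against control in any setting. Over all genes, calls with EPZ5676 were 67 higher and 16 lower with DESeq2, 67 and 9 without a filter, and 0 to 26 higher and 0 to 1 lower with a library left out; the 26 came without EPZ5676 2. With the replicate number as a block there was 1 higher, and 37 members fell in controls against fresh lung. Deviations of same-numbered libraries correlated at 0.46, 0.079 and -0.047 between EPZ5676 and control, not over 0.1 in every pair, so the numbers were not taken to pair them. Genes called higher in controls against fresh lung were 2119 with limma-trend on log2(TPM + 1) against 3202, and genes called lower were 1648 to 2472 with a library left out against 2509. Myc with EPZ5676 ranged from -0.15, without Control 3, to 0.31 with a library left out; against fresh lung Myc passed in 6 of 16 alternatives. No scaling moved the median of all genes by over 0.1 on the log2 scale. With 3 libraries a group, small changes could not be told from spread; intervals cover these libraries only.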

Other observations

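Mycl, a MYC family gene outside the 47 members and chosen after its values were seen, was at 35.5, 19.8 and 34.8 TPM under EPZ5676, 22.6, 17.6 and 14.9 TPM in control explants and 10.6, 11.2 and 10.98 TPM in fresh lungs. All cultured libraries lay above the fresh ones, while EPZ5676 2 lay inside the range of the controls. The log2 fold change of Mycl was 0.68 ± 0.20 in controls against fresh lung (edgeR adjusted p = 0.0195). With EPZ5676 against control it was 0.72 ± 0.19, which did not pass (edgeR adjusted p = 0.369).

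Members varied less than the median tested gene within fresh and control groups. The median coefficient of variation of member TPM was 6.66% in fresh lungs and 16.0% in control explants, against 11.7% and 21.5% over all genes tested. Members were more abundant than many tested genes, and how far that sets the difference was not tested. Most members had a lower log2 ratio of mean TPM than log2 fold change from counts between fresh lung and controls. For Rrp9, Wdr43, Gnl3 and Pes1 the ratios were -1.25, -0.81, -0.70 and -0.58 against log2 fold changes of -0.70, -0.55, -0.48 and -0.38. Heatr1 was among those that went the other way, at -0.52 in TPM against -0.71 in counts. Over all genes tested, the median log2 ratio of TPM to fresh lung averaged -0.07 over the controls, against 0.02 from counts.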
